A study of Homo sapiens with 12 samples.

Results

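The regions described here are the chromatin sites of the transcription factor FOXA1 around UBE2C, CDK1 and CDC20, 3 genes of mitosis (M phase), in LNCaP prostate cancer cells. They were chosen by position alone: every peak of the 12 deposited peak lists whose centre lay in a fixed window around each gene was taken, and peaks that shared at least 1 base were merged into 1 region. The windows, in the genome build hg19, were chr20:44390000-44500000 for UBE2C, chr10:62490000-62610000 for CDK1 and chr1:43770000-43880000 for CDC20. They held 39 of the 178794 merged regions of the whole series, of which 12 lay in the UBE2C window, 18 in the CDK1 window and 9 in the CDC20 window. Regions are numbered along the chromosome within each window.

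FOXA1 is a forkhead pioneer factor, a protein that binds DNA in closed chromatin and opens it for other factors, among them the androgen receptor of luminal prostate cells. UBE2C is the ubiquitin-conjugating enzyme of the anaphase-promoting complex, the ubiquitin ligase that drives cells out of mitosis. CDC20 is an activating, substrate-binding subunit of that ligase, and CDK1 is the kinase that, with cyclin B, drives cells into mitosis. Enhancers near UBE2C that bind the androgen receptor and FOXA1 are known from prostate cancer cells that grow without androgen. LNCaP is an androgen-responsive human prostate cancer line.

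Chromatin immunoprecipitation with sequencing (ChIP-seq) was carried out with 2 antibodies, in a study that, by its title, asks how Polycomb and BUB3/USP7 control the stability of FOXA1. The HA tag was precipitated 5 days after infection in 4 stable lines, each with 1 library: the pGIPZ control, shFoxA1 (a short hairpin against FOXA1), shFoxA1 with wild-type (WT) HA-FOXA1, and shFoxA1 with HA-FOXA1 bearing the substitution K295A. An antibody against FOXA1 itself was used in cells treated for 7 days with DMSO, 1 µM EPZ-6438, 3 µM P5091 or both agents at those doses (the combination), with 2 libraries per group. EPZ-6438, or tazemetostat, blocks EZH2, the methyltransferase of Polycomb, and P5091 blocks the ubiquitin protease USP7. No label says that replicates came from separate cultures, and the p-values therefore speak only of the spread between these libraries.

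The libraries held 11640056 to 22589685 tags (aligned reads). The pGIPZ and shFoxA1 libraries, whose labels name no added FOXA1, had 982 and 971 peaks in the whole genome. There were 97120 with HA-FOXA1 WT and 81607 with K295A. Among the 8 FOXA1 libraries, combination replicate 1 stood apart, with 30811 peaks holding 5.26% of its tags, against 68504 to 84423 peaks holding 18.9% to 21.2% in the other 7. Its tag counts are therefore listed apart from those of replicate 2. Means, SDs, ranges, correlations and fits over the 8 FOXA1 libraries include it unless stated otherwise. The unit below is the authors' deposited normalized tag count, the tags in a peak scaled to a library of 10000000 tags. Peak width was fixed within each library. It was 356 to 365 bases in DMSO, EPZ-6438 and P5091 replicate 1, and 289 to 296 in their replicate 2. It was 279 and 274 bases in combination replicates 1 and 2. Values are not scaled to width unless stated. A library without a call is not a library at 0: a peak was listed only above 6.20 to 8.29 normalized tags in the 10 libraries with FOXA1 or tagged protein, and only if it also passed filters against its surroundings. Comparisons of level between HA and FOXA1 libraries are not made, since the antibodies differ.

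Across the 3 windows, 35 of the 39 regions had a FOXA1 peak in at least 1 of the 8 FOXA1 libraries, and the other 4 were called with tagged protein only. Of those 35, 10 were called in all 8 FOXA1 libraries, against 17.2% of the 140823 regions of the genome with any FOXA1 peak. A further 6 were called in 4 to 7 libraries and 19 in 1 to 3, of which 7 rested on 1 library (26.4% of regions genome-wide). No peak was called in any window in the pGIPZ or shFoxA1 library. HA-FOXA1 WT was called at 19 regions, K295A at 22 and both at 18. Of the 10 regions found in all 8 FOXA1 libraries, 8 were also called with both tagged proteins, against 87.2% genome-wide. Cut into stretches of the same size, the genome had a median of 6 regions per 110 kb (quartiles 3 to 9) and of 7 per 120 kb (quartiles 4 to 10).

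**Figure D1:**
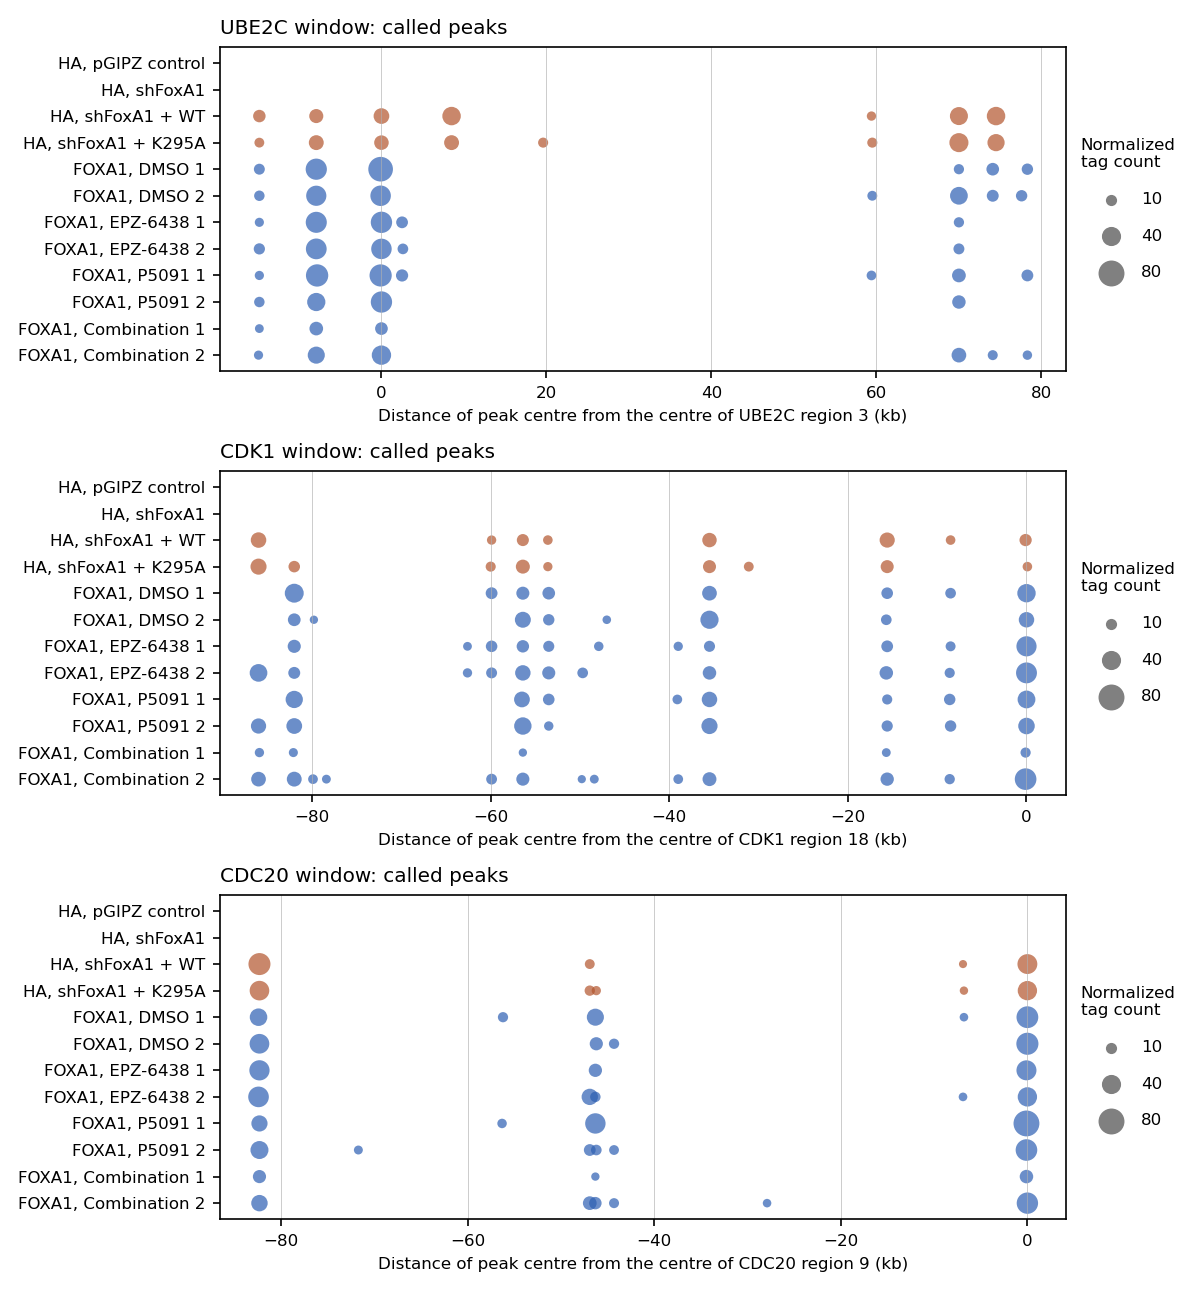
Called peaks in the windows of UBE2C, CDK1 and CDC20 for the 12 libraries (rows), placed by the distance of the peak centre, in kb, from the centre of the region with the highest mean FOXA1 tag count; the area of a point grows with the normalized tag count (HA libraries brown, FOXA1 libraries blue). The pGIPZ and shFoxA1 rows are empty in each window, and combination replicate 1 has the fewest FOXA1 peaks, 11 regions in all.

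The 3 sites of the UBE2C window called in every FOXA1 library lay next to each other on one side, and 2 of them, regions 2 and 3, had the highest tag counts. A group of sites called less evenly lay farther along the chromosome. Region 3 (chr20:44407659-44408081) had the highest mean of the window, 59.0 ± 18.2 normalized tags (SD over the 8 FOXA1 libraries). It held 85.6 and 58.6 normalized tags in DMSO replicates 1 and 2, 63.7 and 58.5 under EPZ-6438, 69.1 and 63.5 under P5091, and 21.3 and 52.1 under the combination. Without scaling to peak width, both combination values lay below every other FOXA1 value of this region. The combination had the narrowest peaks of the FOXA1 groups, and its replicate 1 lay far below its replicate 2. Region 2 (chr20:44399833-44400239) had 62.9 and 56.9 under DMSO, 62.0 and 60.2 under EPZ-6438, 69.8 and 46.0 under P5091, and 25 and 40.2 under the combination. Here too the combination held the lowest pair, while DMSO and EPZ-6438 overlapped. Region 1 (chr20:44392857-44393244) was weaker, at 9.38 to 16.3 across the 8 libraries. All 3 sites were called with both tagged proteins, at 33.6 (WT) and 28.6 (K295A) in region 3, 26.7 and 30.1 in region 2, and 20.6 and 12.1 in region 1.

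Region 8 of the UBE2C window (chr20:44477701-44478125) was the strongest of the distant group by FOXA1 tag count. Its FOXA1 values were 13.2 and 43.5 under DMSO, 13.3 and 15.4 under EPZ-6438, 25.4 and 24.2 under P5091, and, with the combination, no call in replicate 1 and 29.2 in replicate 2. The DMSO replicates were thus the lowest and the highest of the FOXA1 values, and tagged protein gave 45.0 (WT) and 50.5 (K295A). Region 9 (chr20:44481836-44482200) was called in both DMSO libraries (21.2 and 18.6) and in combination replicate 2 (12.6), and in no EPZ-6438 or P5091 library. Region 4 (chr20:44410214-44410602) was called in both EPZ-6438 libraries (18.1 and 14.6) and in P5091 replicate 1 (19.6), and in neither DMSO library. Region 7 (10.7 WT, 12.8 K295A) had FOXA1 calls in DMSO replicate 2 (12.2) and P5091 replicate 1 (11.7). Region 11 was called in DMSO replicate 2 alone (16.8), and region 12, whose centre lay 665 bases on, in DMSO replicate 1 (16.8), P5091 replicate 1 (18.3) and combination replicate 2 (11.0).

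Regions 5 and 10 of the UBE2C window, 2 of the 18 regions called with both tagged proteins, had no FOXA1 peak in any of the 8 libraries, against 24.3% of such regions genome-wide. Region 5 (chr20:44416250-44416572) held 47.3 normalized tags with WT and 30.1 with K295A. Region 10 (chr20:44482262-44482579) held 47.3 and 40.7, so these were the highest WT values of the window. Region 10 began 61 bases past region 9, and their centres lay 410 bases apart. Each library has a minimum distance between its peaks, per the file headers, and in all 12 it was above 410 bases. No library held both regions. The FOXA1 lists were also filtered against input DNA and the HA lists were not, per the file headers; the part of either difference in the missing calls was not tested. Region 6 was called with K295A alone, at 12.8.

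The CDK1 window held the most regions and the most that were called in only some FOXA1 libraries. With a stricter peak score (at least 20 for FOXA1 and 17 for HA) it kept 9 regions, with 0 called in all 8 FOXA1 libraries. Among the FOXA1 libraries, regions 18 and 7 fell short of that score in combination replicate 1 alone, at 19 and 12. Region 18 also fell short with K295A, at 15. The highest mean of the window was at region 18 (chr10:62576966-62577421), 44.6 ± 17.1 normalized tags (SD, 8 FOXA1 libraries). The values there were 46.8 and 32.5 under DMSO, 56.7 and 61.0 under EPZ-6438, 43.7 and 37.5 under P5091, and 13.1 and 65.5 under the combination. Both EPZ-6438 values exceeded both DMSO values, and the combination gave the lowest and the highest value of the region. Region 16 (chr10:62561365-62561782) ran from 9.38 to 24.4, with 17.6 and 14.5 for DMSO, 18.1 and 24.4 for EPZ-6438, 13.0 and 16.3 for P5091, and 9.38 and 23.7 for the combination. As in region 18, the EPZ-6438 pair lay above the DMSO pair, by a small margin in the lower EPZ-6438 library.

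Regions 2 and 7 of the CDK1 window were also called in all 8 FOXA1 libraries. Region 2 (chr10:62495006-62495395) had 49.7 and 21.5 under DMSO, 23 and 18.7 under EPZ-6438, 41.1 and 33.9 under P5091, and 10.0 and 30.0 under the combination. It was the only one of these 4 CDK1 sites without a call for WT tagged protein, while K295A gave 17.3. Region 7 (chr10:62520568-62520952) had 22.7 and 34.8 under DMSO, 20.4 and 32.5 under EPZ-6438, 33.9 and 41.8 under P5091, and 8.13 and 22.9 under the combination. In region 7 replicate 2 exceeded replicate 1 in every group. Region 14 (chr10:62541476-62541856) missed a call in combination replicate 1 only; it had 29.3 and 45.9 under DMSO, 15.9 and 24.4 under EPZ-6438, 32.6 and 35.7 under P5091 and 26.0 in combination replicate 2. Both EPZ-6438 values of region 14 lay below the other 5.

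Region 1 of the CDK1 window (chr10:62491001-62491424) was strong with tagged protein, 32.8 (WT) and 35.4 (K295A), yet was called in neither DMSO library. It had 43.1 in EPZ-6438 replicate 2, 31.5 in P5091 replicate 2, and 10.6 and 29.2 in the combination libraries. Region 8 was called in the 6 libraries without the combination (10.9 to 22.8) and in neither combination library. Region 17 was called in 6 libraries (12.4 to 17), not in DMSO replicate 2 or combination replicate 1, and region 6 in 4 (15 to 18.3). Region 5 (chr10:62514433-62514830) was called with EPZ-6438 only, at 9.30 and 10.6, close to the calling threshold. The other 7 regions with a FOXA1 peak (3, 4, 9 to 13) were called in 1 to 3 libraries at 7.89 to 14.6, and region 15 with K295A alone (12.1). Combination replicate 2 took part in 5 of those 7.

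The CDC20 window had the fewest regions, with a strong site at each end and a pair of close sites between. Region 9 (chr1:43861756-43862133) had the highest mean, 61.4 ± 19.6 normalized tags (SD, 8 FOXA1 libraries). It held 66.5 and 68.5 under DMSO, 55.8 and 52.0 under EPZ-6438, 94.6 and 65.4 under P5091, and 24.4 and 63.9 under the combination. Both EPZ-6438 values lay below both DMSO values. Region 1 (chr1:43779451-43779874) had 42.4 and 54.0 under DMSO, 57.1 and 59.4 under EPZ-6438, 35.9 and 44.8 under P5091, and 23.1 and 37.1 under the combination. Here the order was the other way, with EPZ-6438 above DMSO, and the combination held the lowest value. Tagged protein was highest at these ends, with 67.9 (WT) and 53.5 (K295A) at region 1 and 55.0 and 52.0 at region 9.

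The centres of CDC20 regions 4 and 5 lay 645 bases apart. Region 5 (chr1:43815559-43815946) was called in all 8 FOXA1 libraries, at 40.2 and 23.2 under DMSO, 23.5 and 13.8 under EPZ-6438, 58.1 and 14.5 under P5091, and 8.13 and 20.5 under the combination. Region 4 (chr1:43814918-43815255) was called in EPZ-6438 replicate 2 (36.6), P5091 replicate 2 (18.2) and combination replicate 2 (25.3), and with both tagged proteins (12.2 and 13.6). Every FOXA1 call of region 4 thus came from replicate 2. In DMSO, EPZ-6438 and P5091 replicate 1 the minimum distance between peaks was larger than the distance between these sites. It was smaller, at 578 and 558 bases, in DMSO replicate 2 and combination replicate 1, which also had no call at region 4. The part of this minimum distance in the missing calls was not tested. K295A was also called at region 5, at 10.5, and WT was not. The other 5 regions of the window (2, 3, 6, 7, 8) were called in 1 to 3 FOXA1 libraries, at 8.68 to 13.4, and region 8 also with WT (7.63) and K295A (8.29).

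The strength of the 10 constant sites was ordinary for the genome. Their mean tag count over the 8 FOXA1 libraries had a median of 36.4 (quartiles 25.7 to 50.8), against 34.7 (quartiles 24.7 to 51.6) over all 24261 regions called in all 8. The peak centres of each of these sites fell within 46 to 95 bases of each other across the FOXA1 libraries. In the authors' deposited peak scores, UBE2C region 3 ranged from 28 to 106, CDK1 region 18 from 19 to 90 and CDC20 region 9 from 28 to 88. In the authors' deposited fold over the local background, the same sites ranged from 13.0 to 43.8, 12 to 57.8 and 18.9 to 33.1.

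**Figure D2:**
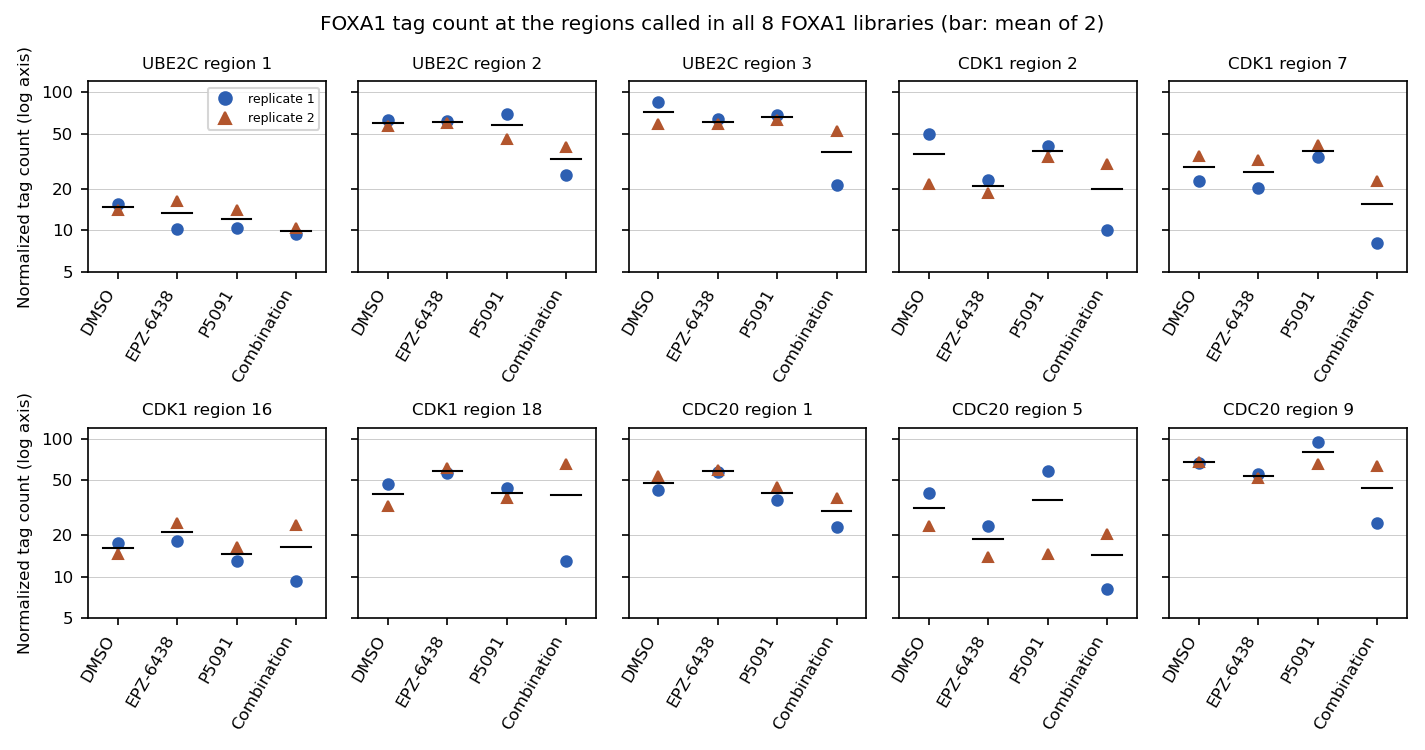
Normalized tag count (log axis) at the 10 regions called in all 8 FOXA1 libraries, by treatment, with replicate 1 as circles, replicate 2 as triangles and the mean of 2 as a bar. Combination replicate 1 is the lowest library at each of the 10 regions, and at CDK1 region 18 the combination spans 13.1 to 65.5.

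Tagged FOXA1 was compared between K295A and WT as the ratio of their tag counts at the 18 regions called with both. With 1 library each there is no replicate check, and the 95% intervals, exact binomial on the tags of a region, cover counting error only. The median ratio was 0.934, against 0.940 over the 68151 regions of the genome called with both. K295A was below WT at 10 of the 18 regions (58.7% genome-wide) and above at 8. None of the 18 was at least 2-fold lower (2.29% genome-wide) or 2-fold higher (0.927%). The interval excluded 1 at UBE2C region 5 alone, with a ratio of 0.637 (0.417 to 0.963), unadjusted among 18. The lowest ratio was at CDK1 region 18, 0.569 (0.280 to 1.12), and the highest at CDK1 region 7, 1.38 (0.804 to 2.41). At the leading sites of the other windows the ratio was 0.852 (0.537 to 1.35) for UBE2C region 3 and 0.946 (0.670 to 1.33) for CDC20 region 9.

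**Figure D3:**
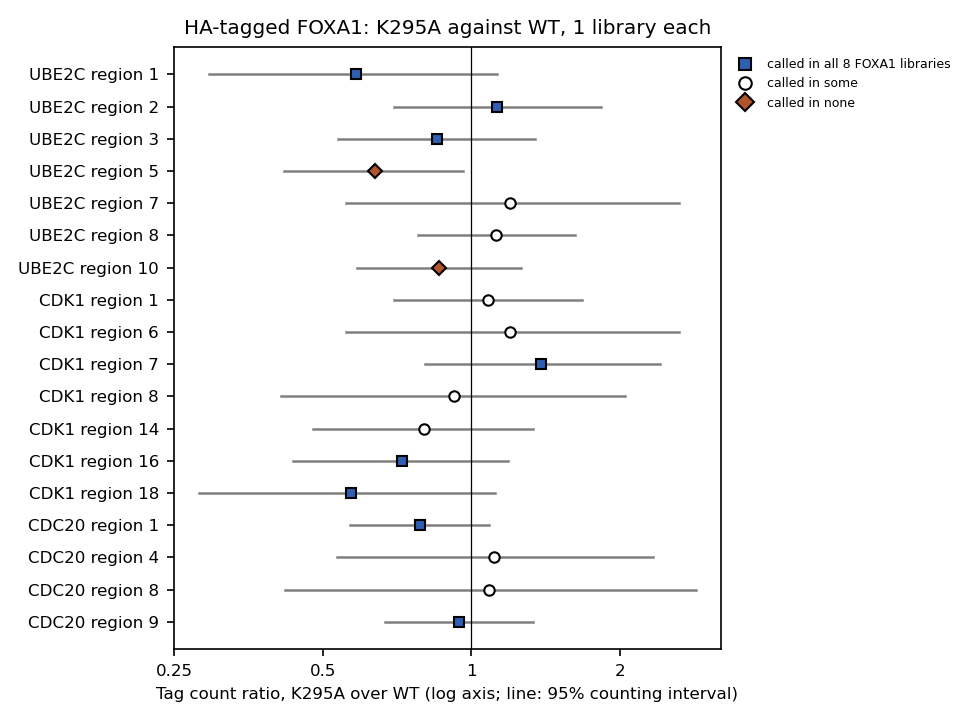
Ratio of the tag count with K295A to that with WT (log axis) at the 18 regions called with both tagged proteins, with 95% counting intervals; filled squares are regions called in all 8 FOXA1 libraries, open circles in some and diamonds in none. The ratios run from 0.569 to 1.38, and the interval of UBE2C region 5 alone lies wholly below 1.

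Between EPZ-6438 and DMSO the leading sites of the 3 genes differed in different directions, and no difference passed the test. In a limma fit of the log2 of each tag count plus 1, across all 24261 regions found in the 8 FOXA1 libraries, the difference from DMSO was -0.21 ± 0.59 (SE) at UBE2C region 3, 0.58 ± 0.60 at CDK1 region 18 and -0.32 ± 0.59 at CDC20 region 9 (Benjamini-Hochberg adjusted p = 1 for each). No region of the genome passed (0%), and neither did any of the 10 sites; 233 regions and 0 sites had an unadjusted p under 0.05, and edgeR's quasi-likelihood test called 0, with 255 unadjusted. Over the 10 sites the median difference was -0.14, against -0.083 over all regions tested. Both EPZ-6438 libraries lay above both DMSO libraries at 3 of the 10 sites, CDK1 regions 16 and 18 and CDC20 region 1 (13.3% genome-wide). They lay below at 1, CDC20 region 9 (22.2%). Of the 35 regions with a FOXA1 peak, 2 were called in both EPZ-6438 libraries and neither DMSO library, UBE2C region 4 and CDK1 region 5 (4.14% genome-wide). UBE2C region 9 was called the other way round (1 of 35, 3.03% genome-wide).

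With P5091 no site passed the test either; the 3 comparisons with DMSO share its libraries. The differences from DMSO were -0.095 ± 0.59 at UBE2C region 3, 0.052 ± 0.60 at CDK1 region 18 and 0.22 ± 0.59 at CDC20 region 9 (limma, adjusted p = 1 for each). No region of the genome passed (0%); 12 regions and 0 sites had an unadjusted p under 0.05, while edgeR made 0 calls and found 13 unadjusted. The median difference was -0.069 over the sites and -0.022 over all regions. At none of the 10 sites did both P5091 libraries lie above (9.38% genome-wide) or below (11.2%) both DMSO libraries. No site was gained with P5091 (2.03% genome-wide), and 1, UBE2C region 9, was lost (2.25%). With an SE of 0.59 on the log2 scale, these values do not show that P5091 leaves the sites as they were. That SE, like the one for EPZ-6438, pools the spread within all 4 groups, combination replicate 1 included. After centring on library medians, the P5091 difference at UBE2C region 3 was -0.094 with an SE of 0.28.

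With the combination all 10 sites had lower fitted values than with DMSO, and none passed the test. All but 8.06% of the regions of the genome were lower too. With the replicate block and centring on library medians, 3 of the 10 were higher and 7 lower, with a median of -0.14; UBE2C region 3 was then at -0.39, CDC20 region 9 at -0.078 and CDK1 region 18 at 0.29. The difference was -1.06 ± 0.59 at UBE2C region 3 (limma, adjusted p = 0.358), -0.39 ± 0.60 at CDK1 region 18 (adjusted p = 0.668) and -0.75 ± 0.59 at CDC20 region 9 (adjusted p = 0.440). The median was -0.81 over the sites and -0.69 over all 24261 regions, of which 0% passed; 3418 regions and 1 site had an unadjusted p under 0.05, while edgeR made 0 calls and found 2439 unadjusted. Both combination libraries lay below both DMSO libraries at 6 of the 10 sites, UBE2C regions 1, 2 and 3 and CDC20 regions 1, 5 and 9 (42.5% genome-wide), and above at none (0.544%). CDK1 region 1 was gained (0.599% genome-wide) and CDK1 region 8 lost (5.68%). Scaled to 300 bases of peak width, which was narrowest in the combination among the FOXA1 groups, the differences were smaller. They were -0.84 at UBE2C region 3, -0.16 at CDK1 region 18 and -0.53 at CDC20 region 9. In that limma fit 1164 regions and 0 sites had an unadjusted p under 0.05. The values also turn on combination replicate 1, whose median over all regions called in all 8 libraries was 15 normalized tags, against 35.0 to 40.2 in the other 7. Without it the difference at CDK1 region 18 was 0.73, and 0 of 12 sites passed. Without combination replicate 2 it was -1.50, and 8 of 10 sites passed, beside 66% of regions genome-wide. The weak library then stands alone for the combination and is assumed to vary like the other groups. A change of the cells and a weak library cannot be told apart for that replicate.

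All 4 libraries with EPZ-6438, alone or combined, were then set against all 4 without, with P5091 as a further factor. The comparison uses every FOXA1 library, combination replicate 1 included, and so shares all of them with the comparisons above. The difference was -0.59 ± 0.41 at UBE2C region 3 (limma, adjusted p = 0.538), 0.071 ± 0.41 at CDK1 region 18 (adjusted p = 0.937) and -0.65 ± 0.41 at CDC20 region 9 (adjusted p = 0.517). The median was -0.49 over the sites and -0.38 over all regions tested, of which 15.2% were higher. No region passed (0%), with 2440 regions and 2 sites at an unadjusted p under 0.05, while edgeR called 0, with 2114 unadjusted. The same factors gave 0% for P5091 (250 regions and 0 sites unadjusted, edgeR 0 called and 203 unadjusted). For the interaction of the agents 0% passed too (158 regions and 0 sites unadjusted, edgeR 0 called and 141 unadjusted). Without combination replicate 2, 4 of 10 sites passed for the interaction, beside 24.2% of regions genome-wide.

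Same-numbered libraries were taken as pairs, from correlated deviations and fragment lengths, although no label gives a shared batch. The same comparison was therefore fitted with the replicate as a block after subtracting the median log2 tag count of each library. Values are then relative to the median region of each library. Genome-wide 8.81% of regions then passed for EPZ-6438 against its absence, 0.688% for EPZ-6438 against DMSO and 4.22% for the combination, and 0 of the 10 sites passed in any of these. Before adjustment 4 of the 10 sites had a p under 0.05 in the first of them, against 24% of regions. CDK1 regions 16 and 18 were the higher pair, at 0.57 ± 0.26 (limma, adjusted p = 0.150) and 0.44 ± 0.20 (adjusted p = 0.152). CDC20 region 5 and CDK1 region 2 were the lower pair, at -0.56 ± 0.24 (adjusted p = 0.144) and -0.48 ± 0.22 (adjusted p = 0.169). UBE2C region 3 was at -0.22 ± 0.17 (limma, adjusted p = 0.439) and CDC20 region 9 at -0.28 ± 0.17 (adjusted p = 0.307). After centring, the 4 libraries with EPZ-6438 all lay above the 4 without at CDK1 region 16 (1 of 10 sites, 4.46% genome-wide). At no site did they all lie below (4.12%). Before centring, combination replicate 1 held the lowest value of CDK1 region 16, 9.38 normalized tags, against a calling threshold of 6.88 in that library.

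**Figure D4:**
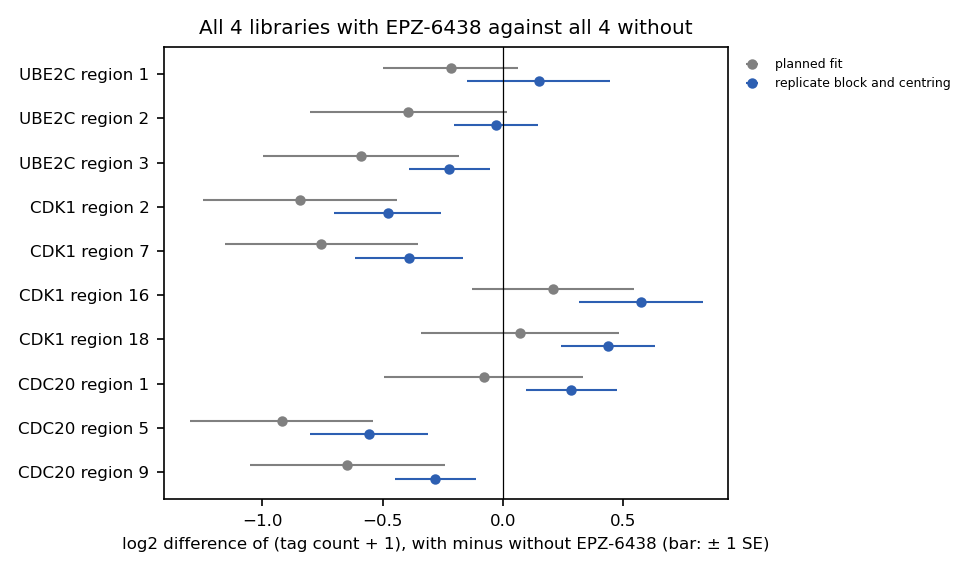
Difference in log2 (tag count + 1) between the 4 libraries with EPZ-6438 and the 4 without at the 10 regions called in all 8 FOXA1 libraries, with bars of 1 SE, for the fit without a block (grey) and with the replicate block and centring (blue). Centring moves every region upward, and CDK1 regions 16 and 18 lie highest in both fits.

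Leaving out single libraries, an alternative added after seeing the data, changed which site passed in the blocked and centred fit. Without combination replicate 1, CDK1 region 18 passed at 0.71 ± 0.19 (limma, adjusted p = 0.0163), as 1 of 12 sites tested, beside 5.16% of regions genome-wide; over all alternatives run for that difference its adjusted p ran from 0.0163 to 0.993. Without P5091 replicate 2 or combination replicate 2, CDC20 region 5 passed instead, at -0.84 ± 0.26 (adjusted p = 0.0351, 1 of 10 sites beside 6.85% of regions) and -0.79 ± 0.26 (adjusted p = 0.0354, 1 of 10 sites beside 9.48% of regions). Within replicates, EPZ-6438 minus DMSO was 0.27 and 0.89 at CDK1 region 18 and -0.75 and -0.71 at CDC20 region 5. Combination minus P5091 was -1.66 and 0.79 at CDK1 region 18 and -2.69 and 0.47 at CDC20 region 5, with opposite signs in the 2 replicates. Centred on the library medians, the latter were -0.36 and 0.83 at CDK1 region 18 and -1.39 and 0.52 at CDC20 region 5, still opposite in sign.

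Sites of the same window had no higher median likeness than sites of different windows. Over the 8 FOXA1 libraries, after centring, Pearson's r ran from -0.65 to 0.75 (median -0.23) in the 12 pairs of the same window and from -0.85 to 0.66 (median -0.12) in the 33 pairs of different windows. The most alike were CDC20 regions 5 and 9 (r = 0.75), followed by CDK1 region 2 and CDC20 region 5 (r = 0.66). The libraries are shared by all pairs and fall in 4 groups of 2, so these correlations are descriptions. Where the transcription starts of the 3 genes lie among these sites was not analysed here, since no annotation of the build of the peaks was used. A site in a window may therefore belong to a neighbouring gene.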

How the data were processed

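The data were 12 ChIP-seq peak lists of LNCaP cells, 4 with an HA antibody (1 library per condition) and 8 with a FOXA1 antibody (2 per group). The tools were Bowtie2 and HOMER 4.2 on hg19, per the submitters' processing notes. Each library's list came from its own run of findPeaks, per the file headers. The limit was a false discovery rate of 0.001, a 4-fold excess of tags over the surrounding 10 kb and, for FOXA1, a 4-fold excess over input. The value used, the deposited normalized tag count, is a signal scaled to 10000000 tags per library, per the file headers. The deposited peak score and the deposited fold over background (a ratio made by the authors) served for description and for a stricter threshold, and the deposited focus ratio (a fraction) was not used for results. The deposited total tag count is a whole-number count present in 3 libraries. Tags recovered from the normalized values were whole for 100% of peaks and equalled that count for 97.3% to 100% of peaks in those libraries.

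Peaks of the 12 lists sharing at least 1 base were merged, and a library's highest peak gave its value in a region. Regions called in all 8 FOXA1 libraries were tested together with limma 3.58.1 (R 4.3.3, trend on) on log2 (tag count + 1), with Benjamini-Hochberg adjustment at 0.05 over 24261 regions. edgeR 4.0.16 (quasi-likelihood) on the recovered tags was an alternative. The limma fit without a block was tested on simulated data, for EPZ-6438 against DMSO and against its absence. The simulated noise was independent between libraries, with no weak library and no replicate effect. The blocked, centred and edgeR fits were not tested in this way. Ratios of K295A to WT carry exact 95% binomial intervals for counting error. Whether replicate numbers, taken from the titles, pair the libraries was checked: the deviations of same-numbered libraries correlated between groups at 0.148 to 0.488, all 6 above 0.1, and fragment lengths differed between replicates 1 and 2 (274 to 278 against 216 to 230 bases). All regions in the windows were described, and the leading site of a window is the one with the highest mean over the 8 FOXA1 libraries. The windows, lists and tests were chosen with earlier results of these data known. Peak sequences and the position of genes were not analysed here, since no reference of the build hg19 was used; other mitotic genes were left out for the same reason.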

Additional observations from a re-analysis of the deposited data

Results flagged for a closer look

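CDC20 region 1 was singled out because its uncentred values with and without EPZ-6438 differed in opposite directions in the absence and the presence of P5091. The log2 difference between EPZ-6438 and DMSO was 0.42 and 0.14 in replicates 1 and 2, a mean of 0.28, while that between the combination and P5091 was -0.61 and -0.27, a mean of -0.44. This opposition of signs was not tested as such; the interaction of the agents in the fit across all regions was -0.72 ± 0.85 (limma, adjusted p = 0.874). The opposition did not hold after centring on the library medians. The difference between EPZ-6438 and DMSO was then 0.62 and 0.052, a mean of 0.33, and that between the combination and P5091 was 0.69 and -0.22, a mean of 0.23. With the replicate block and centring the interaction was -0.099 ± 0.39 (limma, adjusted p = 0.999).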

How the results depend on the processing

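No count of sites passing the test changed with the replicate block alone, which gave 0 of 10 in each of the 6 comparisons, or with centring, a pseudocount of 5, summed peaks, width scaling, edgeR or the libraries of each contrast alone. Of 159 alternative counts 154 were unchanged, and of 321 alternative log2 differences of the leading sites 296 kept their direction. The combination against DMSO called 0 to 8 sites and the interaction 0 to 4 when 1 library was left out, the upper values without combination replicate 2, where 66% and 24.2% of all regions passed. With the replicate block and centring, EPZ-6438 against its absence called 0 to 1 site when 1 library was left out, and 5.16% to 9.48% of all regions where it called 1. With the stricter peak score (20 for FOXA1, 17 for HA) the CDK1 window kept 9 regions, 0 in all 8 libraries and 4 with both tagged proteins, and the CDC20 window 4 regions and 2 with both tagged proteins. Among the FOXA1 libraries, CDK1 regions 7 and 18 missed that score in combination replicate 1 alone. Region 18 also missed it with K295A.

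Of the 25 reversals, 10 were at CDK1 region 18 for the combination: 0.29 with centring, 0.29 with the replicate block and centring, and 0.45 with edgeR, TMM and the replicate block. Leaving out 1 library gave -1.50 to 0.73 there, and -0.30 to 0.89 in the blocked and centred fit (0.60 without DMSO replicate 1, 0.28 without P5091 replicate 1). Other differences that crossed 0 when 1 library was left out were EPZ-6438 at UBE2C region 3 (-0.48 to 0.058), EPZ-6438 against its absence at CDK1 region 18 (-0.27 to 0.62), and P5091 at UBE2C region 3 (-0.37 to 0.17), CDK1 region 18 (-0.20 to 0.31) and CDC20 region 9 (-0.045 to 0.48). In the blocked and centred fit these were P5091 at UBE2C region 3 (-0.22 to 0.056), CDK1 region 18 (-0.24 to 0.38, and -0.15 without P5091 replicate 1) and CDC20 region 9 (-0.050 to 0.49), and the combination at CDC20 region 9 (-0.27 to 0.13, and 0.073 without combination replicate 1). The cause of these reversals was not tested. The effect of depth on missed calls was not tested.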
